A study of Mus musculus with 5 samples.

Results

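Inhibitory checkpoint receptors and the transcription factors of lymphocyte dysfunction were examined in splenic natural killer (NK) cells of the mouse: 6 receptor genes (Pdcd1, Ctla4, Lag3, Havcr2, Lilrb4a and Cd200r1), the 3 NR4A genes (Nr4a1, Nr4a2 and Nr4a3) and Tox. These 10 genes were chosen by symbol among the 56691 Ensembl gene IDs of the count table, and each matched 1 ID. Bulk RNA was sequenced in 3 libraries from cells with CRISPR knockout of Fli1, labelled Fli1 KO 1 to 3, and in 2 libraries of the control labelled NTC, NTC 1 and NTC 2. Fli1 is an ETS transcription factor gene. The labels give no strain, age, culture condition, guide sequence or editing rate, and do not say whether the libraries came from separate animals. The p-values therefore measure only the spread between these libraries.

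Checkpoint receptors sit on the surface of T and NK cells and, once bound by ligands on other cells, recruit phosphatases or adaptors that damp activating signals. NR4A proteins are orphan nuclear receptors whose genes are switched on quickly by calcium and kinase signals, and in T cells they curb effector genes under lasting stimulation. TOX, an HMG-box DNA-binding protein, is needed in mice for the development of NK cells and maintains the exhausted state of CD8 T cells.

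Libraries held 4718390 to 5643791 counts. Gm10800, the gene model with the highest summed count, took 13.8% to 16.4% of counts in Fli1 KO and 10.3% and 18.98% in NTC. Background was taken as the density of counts on 1726 autosomal olfactory and vomeronasal receptor genes, which NK cells do not use. It stood at 1.47 to 1.69 counts-per-million (CPM) per kb of exon in Fli1 KO, and at 1.38 and 1.78 in NTC 1 and NTC 2. Fli1 itself was at 390, 320 and 361 CPM in Fli1 KO, against 322 and 279 CPM in NTC (log2 fold change 0.25, SE 0.14, edgeR adjusted p = 0.641). This is no check of the labels, since transcripts with small insertions or deletions are still counted. All 12 NK marker genes on a list that holds Ncr1, Klrb1c and Prf1 lay over 3 times background. The summed level of 9 T cell markers was 64.1 to 69.8 CPM in Fli1 KO and 63.5 and 64.3 CPM in NTC, where background alone would give 49.5 to 63.6 CPM.

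The promoters of the NR4A genes are shown because all 3 genes had higher values in each Fli1 KO library than in either NTC library. RefSeq promoters (GRCm38.p6, 250 bases before to 50 after the start) were found for 6 of the 10 genes. Capitals mark TGACG or its reverse complement CGTCA, the core of the cAMP response element that CREB and CREM proteins bind. The Nr4a1 window lies within the span of the gene as GENCODE gives it.
Nr4a1, chr15:101266596-101266895, plus strand: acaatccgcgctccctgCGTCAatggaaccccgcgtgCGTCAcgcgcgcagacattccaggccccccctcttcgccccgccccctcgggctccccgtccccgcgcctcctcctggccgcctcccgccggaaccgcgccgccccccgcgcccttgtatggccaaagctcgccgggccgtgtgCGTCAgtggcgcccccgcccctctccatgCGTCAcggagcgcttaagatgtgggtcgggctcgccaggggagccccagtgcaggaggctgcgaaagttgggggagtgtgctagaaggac
Nr4a2, chr2:57123954-57124253, minus strand: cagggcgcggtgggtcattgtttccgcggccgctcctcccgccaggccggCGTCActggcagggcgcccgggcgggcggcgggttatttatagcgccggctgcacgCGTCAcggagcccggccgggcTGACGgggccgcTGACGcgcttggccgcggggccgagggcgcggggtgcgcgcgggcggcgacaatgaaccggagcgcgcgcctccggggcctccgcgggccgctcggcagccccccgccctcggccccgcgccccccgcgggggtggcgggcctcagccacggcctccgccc
Nr4a3, chr4:48045055-48045354, plus strand: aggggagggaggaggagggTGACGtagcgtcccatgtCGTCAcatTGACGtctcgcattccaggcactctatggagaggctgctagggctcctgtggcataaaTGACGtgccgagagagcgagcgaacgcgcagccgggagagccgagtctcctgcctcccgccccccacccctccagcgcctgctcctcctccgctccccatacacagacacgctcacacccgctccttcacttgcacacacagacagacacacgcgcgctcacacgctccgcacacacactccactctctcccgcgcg

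Each NR4A promoter held 4 of these cores. Of all 32851 promoters, 20.8% held at least 1 and 76 (0.231%) held 4 or more. The cut of 4 equals the count in these NR4A promoters, and promoters were not matched for base content, so this share is no test. In Nr4a1 the cores began at −233, −213, −69 and −40 from the start. In Nr4a2 they began at −200, −144, −123 and −111, and in Nr4a3 at −231, −213, −205 and −147. The promoters of Ctla4, Pdcd1 and Havcr2 held 0. The full palindrome TGACGTCA was in 0 of the 6 promoters (1.79% of all), as were the ETS motif CCGGAAG (8.86% of all), the NR4A motif AAAGGTCA (1.51%) and the SRF CArG box (1.63%). The EGR motif GCGNGGGCG was found once in Nr4a1 and once in Nr4a2 (5.55% of all), TGANTCA of AP-1 once in Havcr2 (7.81%), and the NFAT core GGAAA in Ctla4, Pdcd1 and Nr4a2 (61.3%). Both strands were searched, and TGACG is part of TGACGTCA. Only the strings given were searched, so shorter or variant sites, such as other ETS sites, were not counted. A match is a string of letters, not a bound site.

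Across the 10 genes, Fli1 KO was compared with NTC in an edgeR quasi-likelihood fit over all 30580 genes with enough counts, which all 10 passed. By this test 0 of the 10 were called at a Benjamini-Hochberg adjusted p under 0.05, where 0.546% of all tested genes were called (0.458% higher and 0.0883% lower). Among the 7609 genes over 3 times background 1.71% were called higher and 0.289% lower. The smallest adjusted p was 0.144, for Ctla4. At an unadjusted p under 0.05 there were 7 of the 10, against 8.94% of all tested genes and 18.3% of those over 3 times background: Ctla4, Lilrb4a, Nr4a1, Nr4a2 and Nr4a3 with higher values in Fli1 KO, and Cd200r1 and Tox with lower values. DESeq2 called 1, Nr4a1, and limma-voom called 0, where they called 0.585% and 0.569% of all tested genes. The groups did not overlap in 8 genes, 5 with Fli1 KO higher and 3 with it lower, where 25.6% of all tested genes did not overlap. Of the 7 genes over 3 times background, 5 did not overlap, against 34.1% of all such genes. The median log2 fold change of the 10 genes was 0.28, against −0.02 for all tested genes and 0.11 for those over 3 times background. The 10 genes were chosen with earlier results of these data known, so these shares and medians are no test of the set. Fits without NTC 1 or NTC 2 leave 1 NTC library, which is taken to vary as much as Fli1 KO. Adjusted p from those fits do not measure the strength of a change.

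**Figure D1:**
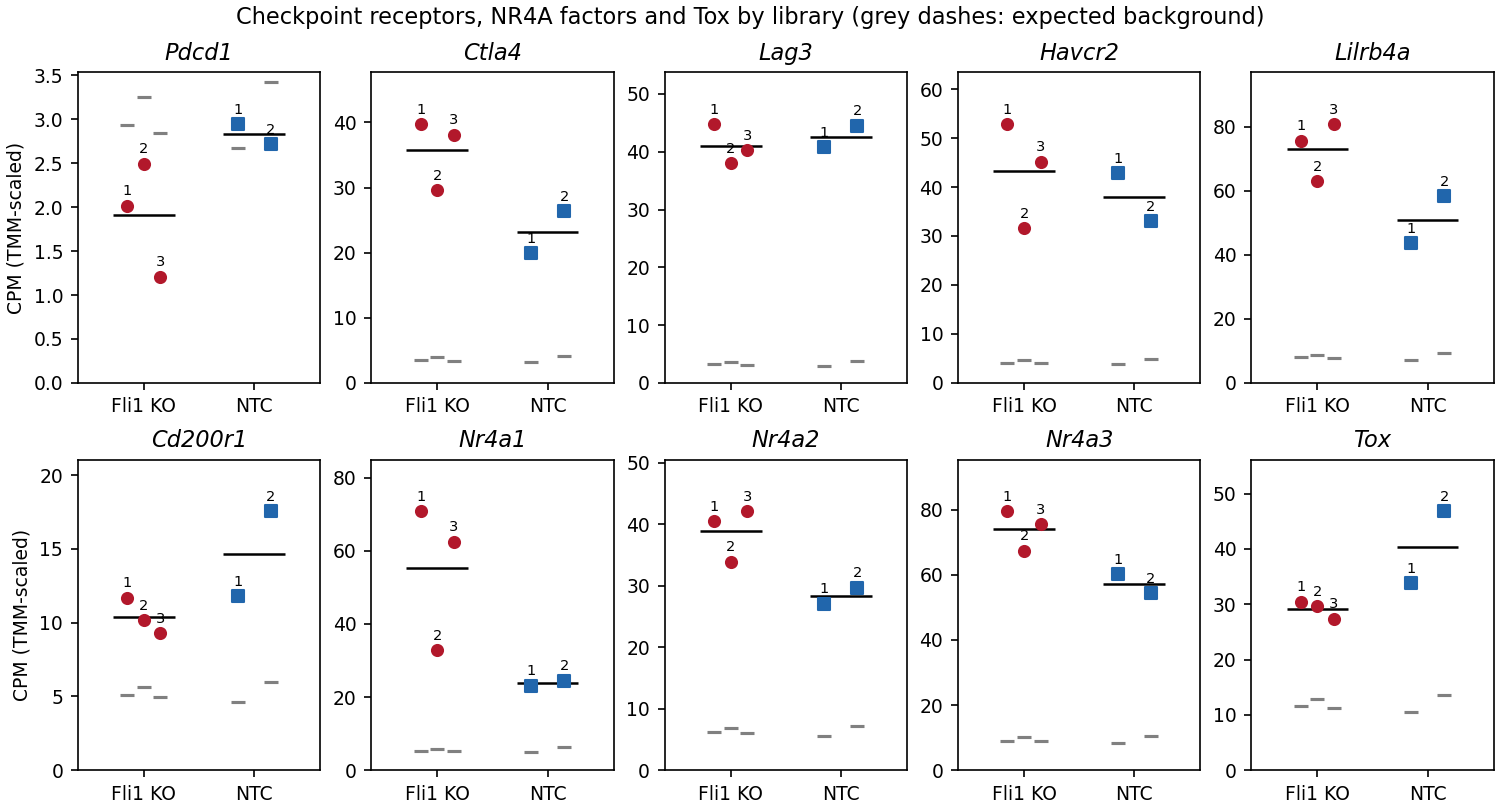
TMM-scaled CPM of each of the 10 genes, with the 3 Fli1 KO libraries (red circles) left of the 2 NTC libraries (blue squares), numbered by replicate; black lines are group means and grey dashes the background expected from exon length in each library. Nr4a1 was at 32.8 CPM in Fli1 KO 2, near the NTC libraries, and at 70.8 and 62.5 CPM in the other two Fli1 KO libraries; Pdcd1 lay at or near background in every library.

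Nr4a1 (ENSMUSG00000023034, GRCm38 chromosome 15, 101254269 to 101274795), which encodes NUR77, had the widest difference among the 10. It stood at 70.8, 32.8 and 62.5 CPM in Fli1 KO 1 to 3, against 23.1 and 24.4 CPM in NTC 1 and NTC 2. All Fli1 KO libraries were above both NTC libraries, but Fli1 KO 2 was nearer to NTC than to its own group. The means were 55.4 ± 20.0 CPM (SD, n = 3) in Fli1 KO and 23.8 ± 0.978 CPM (SD, n = 2) in NTC, a log2 fold change of 1.22 (SE 0.32, 95% interval 0.45 to 1.98) with an edgeR adjusted p of 0.293. Without Fli1 KO 2 the log2 fold change was 1.51 and was called (edgeR adjusted p = 2.3e-05). DESeq2 gave 1.24 with all 5 libraries and called it (adjusted p = 0.00189). Without Fli1 KO 1 or Fli1 KO 3 the edgeR log2 fold change was 1.01 and 1.14, not called (edgeR adjusted p = 0.385 and 0.456). With 1 NTC library left, it was 1.19 without NTC 1 and 1.26 without NTC 2.

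Nr4a2 (ENSMUSG00000026826, GRCm38 chromosome 2, 57106830 to 57124003), which encodes NURR1, was at 40.6, 33.9 and 42.1 CPM in Fli1 KO, against 27.1 and 29.7 CPM in NTC. Fli1 KO 2 was again the lowest of its group, and the groups did not overlap. The log2 fold change was 0.45 (SE 0.16, edgeR adjusted p = 0.311). Nr4a3 (ENSMUSG00000028341, GRCm38 chromosome 4, 48045153 to 48086447), which encodes NOR1, was at 79.5, 67.4 and 75.6 CPM in Fli1 KO, against 60.2 and 54.3 CPM in NTC. All 3 Fli1 KO values lay above both NTC values. The log2 fold change was 0.37 (SE 0.14, edgeR adjusted p = 0.373). With 1 library left out, Nr4a2 ranged from 0.41 to 0.57 and Nr4a3 from 0.31 to 0.47. Neither gene was called with any 1 of the Fli1 KO libraries left out.

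Levels of the 3 NR4A genes can be set side by side only per length, and even coverage by the capture probes was not tested. In Fli1 KO, Nr4a1 averaged 15.8 ± 5.69, Nr4a3 12.4 ± 1.03 and Nr4a2 9.57 ± 1.08 CPM per kb of exon (SD, n = 3). In NTC the order was Nr4a3 at 9.56 ± 0.691, Nr4a2 at 6.99 ± 0.456 and Nr4a1 at 6.77 ± 0.279 CPM per kb (SD, n = 2), with Nr4a2 and Nr4a1 within their spread. Nr4a1 made up 46.5%, 32.3% and 43.6% of the summed NR4A level per kb in Fli1 KO 1 to 3, against 28.2% and 29.8% in NTC 1 and NTC 2. Nr4a3 was the highest of the 3 in both NTC libraries and in Fli1 KO 2, and Nr4a1 in Fli1 KO 1 and Fli1 KO 3.

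**Figure D2:**
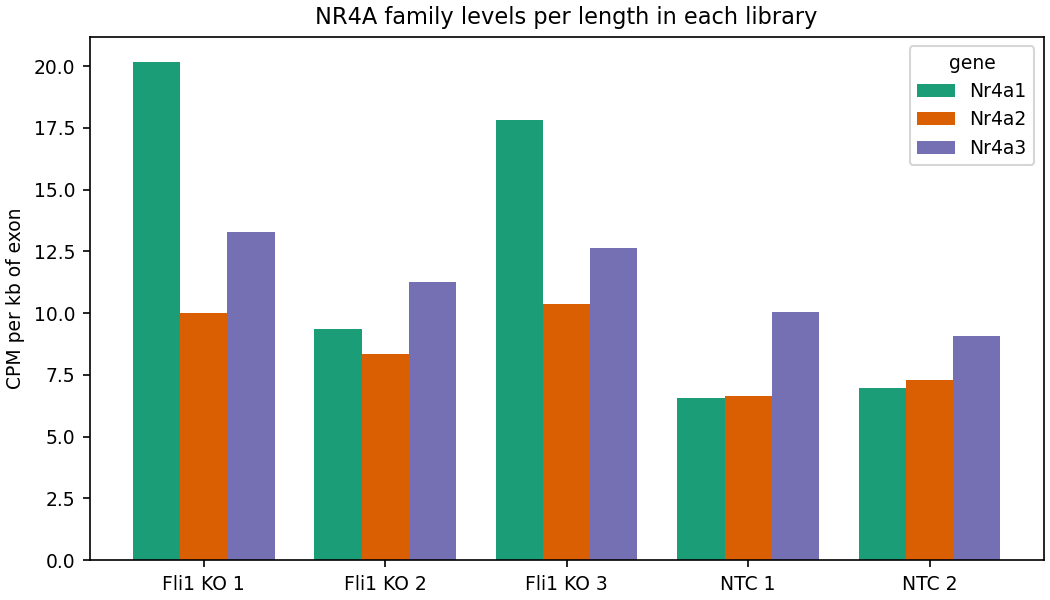
CPM per kb of exon of Nr4a1, Nr4a2 and Nr4a3 (bars) in each Fli1 KO and NTC library. Nr4a1 was at 20.2 and 17.8 in Fli1 KO 1 and Fli1 KO 3, at 9.35 in Fli1 KO 2, and at 6.57 and 6.97 in NTC 1 and NTC 2.

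Tox (ENSMUSG00000041272, GRCm38 chromosome 4, 6686353 to 6991557) had lower values in every Fli1 KO library than in either NTC library. It was at 30.5, 29.6 and 27.4 CPM in Fli1 KO, against 33.8 and 46.8 CPM in NTC. The Fli1 KO values lay close together, and NTC 2 stood apart from NTC 1. The log2 fold change was −0.46 (SE 0.16, 95% interval −0.79 to −0.13, edgeR adjusted p = 0.318). It was −0.66 without NTC 1 and −0.21 without NTC 2, each with 1 NTC library left. Tox averaged only 2.83 times background, and with the expected background subtracted from each library the log2 fold change was −0.81 (edgeR adjusted p = 0.203). An antisense transcript in the gene, Gm11802, had 4 to 15 counts a library, and whether counting used strand is not stated.

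Ctla4 (ENSMUSG00000026011, GRCm38 chromosome 1, 60887000 to 60915832) encodes the receptor that competes with CD28 for CD80 and CD86. It was at 39.8, 29.6 and 38.1 CPM in Fli1 KO, against 19.9 and 26.3 CPM in NTC. The groups did not overlap, but Fli1 KO 2 and NTC 2 lay close. The means were 35.8 ± 5.44 CPM (SD, n = 3) in Fli1 KO and 23.1 ± 4.51 CPM (SD, n = 2) in NTC, a log2 fold change of 0.63 (SE 0.17, 95% interval 0.27 to 0.998, edgeR adjusted p = 0.144). It was called without Fli1 KO 2 (0.78, edgeR adjusted p = 0.0423) and when no filter on low counts was used (0.65, 0.0489). With 1 NTC library left, the log2 fold change was 0.46 without NTC 1 and 0.85 without NTC 2. The level of Ctla4 was 6.18 to 11.2 times background, and each of the 9 T cell markers averaged under 3 times background. Among these markers 4 had positive and 5 negative log2 fold changes. Cd3g was at 20.2, 12.8 and 12.7 CPM in Fli1 KO, against 11.8 and 9.61 CPM in NTC, without overlap. The part of T cells in the Ctla4 values was not tested. A processed pseudogene, Rpl18-ps1, lies within the span of Ctla4 on the same strand.

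Lilrb4a (ENSMUSG00000112148, GRCm38 chromosome 10, 51490956 to 51496611) encodes gp49B, a receptor with inhibitory tyrosine motifs in its cytoplasmic tail. It was at 75.7, 63.0 and 80.8 CPM in Fli1 KO, against 43.5 and 58.3 CPM in NTC. The groups did not overlap, with a log2 fold change of 0.53 (SE 0.16, 95% interval 0.20 to 0.85, edgeR adjusted p = 0.192). With 1 NTC library left it was 0.35 without NTC 1 and 0.75 without NTC 2.

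Lilr4b, its neighbour and close paralogue (ENSMUSG00000112023, GRCm38 chromosome 10, 51480632 to 51486703), was called. It rose to 197, 155 and 191 CPM in Fli1 KO, against 83.2 and 113 CPM in NTC, a log2 fold change of 0.88 (SE 0.16, edgeR adjusted p = 0.00531). The call ended without Fli1 KO 1 (0.83, adjusted p = 0.127) or Fli1 KO 3 (0.86, 0.125), or with background subtracted (0.83, 0.116). The value of either gene is uncertain, because 26.1% of the 50-base stretches of Lilrb4a transcripts are also in Lilr4b and 33.7% in Gm49339, a model that spans both genes and was listed at 0 in every library. How shared reads were counted is not stated. Summed, the pair was at 273, 218 and 271 CPM in Fli1 KO, against 127 and 171 CPM in NTC, a log2 fold change of 0.77 that was called (edgeR adjusted p = 0.0170). Lilrb4a held 27.8% to 29.8% of the sum in Fli1 KO and 34.0% and 34.3% in NTC. Both genes are also used by myeloid cells. The 10 myeloid markers summed to 339 to 362 CPM in Fli1 KO and to 247 and 365 CPM in NTC, and 2 of them lay over 3 times background. Itgax, which NK cells also express, was at 297, 319 and 310 CPM in Fli1 KO, against 321 and 210 CPM in NTC. Cd68, of macrophage lysosomes, was at 15.3, 14.8 and 15.7 CPM in Fli1 KO, against 14.6 and 10.2 CPM in NTC (log2 fold change 0.29, edgeR adjusted p = 0.726), and its groups did not overlap. Of the other 8, Adgre1, Csf1r, Siglech and Cd14 averaged 0.807 to 1.42 times background, and Lyz2, Ly6g, S100a8 and S100a9 had 3 to 11 counts a library. The part of such cells in the Lilrb4a and Lilr4b values was not tested.

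Cd200r1 (ENSMUSG00000022667, GRCm38 chromosome 16, 44765736 to 44794978) encodes the receptor for CD200, which signals through the adaptor DOK2, and in the mouse it marks type 1 innate lymphoid cells (ILC1) apart from NK cells. It was at 11.7, 10.2 and 9.27 CPM in Fli1 KO, against 11.8 and 17.6 CPM in NTC. Fli1 KO 1 and NTC 1 were almost equal, and NTC 2 stood apart. The log2 fold change was −0.49 (SE 0.21, 95% interval −0.93 to −0.04, edgeR adjusted p = 0.497). With 1 NTC library left, it was −0.74 without NTC 1 and −0.18 without NTC 2. With the expected background subtracted it was −0.97 (edgeR adjusted p = 0.344), and the gene averaged 2.31 times background. Of 8 ILC1 markers 8 had negative log2 fold changes, as did 16027 of all 30580 tested genes, and their median was −0.92. The groups did not overlap in 4 of the 8, where 25.6% of all tested genes did not, and 6 lay over 3 times background. Called lower were 2, Tnfsf10 (−0.76) and Inpp4b (−0.61), where 0.0883% of all tested genes were called lower. Their summed level was 332 to 345 CPM in Fli1 KO, against 405 and 604 CPM in NTC, and 0 of the 8 were at 0. Il7r alone was at 20.2, 25.3 and 21.4 CPM in Fli1 KO, against 20.1 and 117 CPM in NTC. Cxcr6 (48.9 against 19.1 CPM), Tmem176b (38.4 against 15.3) and Tmem176a (26.1 against 8.67) were also far higher in NTC 2 than in NTC 1. The remaining markers, Tnfsf10 and Inpp4b among them, differed less between the NTC libraries. The part of such cells in the Cd200r1 and Tox values was not tested, and in bulk RNA fewer cells of a type and less RNA per cell cannot be told apart. The calls of Tnfsf10 and Inpp4b ended without Fli1 KO 1 (edgeR adjusted p = 0.0905 and 0.214) or Fli1 KO 3 (0.130 and 0.418), and that of Inpp4b also without Fli1 KO 2 (0.0710). With 1 NTC library left, the log2 fold change of Inpp4b was −0.65 without NTC 1 and −0.54 without NTC 2.

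Lag3 (ENSMUSG00000030124, GRCm38 chromosome 6, 124904361 to 124911705), a receptor for MHC class II related in structure to CD4, showed no difference beyond the spread. It was at 44.8, 38.0 and 40.3 CPM in Fli1 KO, against 40.7 and 44.5 CPM in NTC. The groups overlapped, and the log2 fold change was −0.05 (SE 0.14, edgeR adjusted p = 0.953). Its 95% interval, −0.35 to 0.24, leaves room for modest changes in either direction. Havcr2 (ENSMUSG00000020399, GRCm38 chromosome 11, 46454935 to 46481255), which encodes TIM-3, was at 52.9, 31.6 and 45.1 CPM in Fli1 KO, against 42.8 and 33.0 CPM in NTC. The groups overlapped, with the lowest value of all in Fli1 KO 2 and the highest in Fli1 KO 1. The log2 fold change was 0.18 (SE 0.19, 95% interval −0.21 to 0.57, edgeR adjusted p = 0.845).

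Pdcd1 (ENSMUSG00000026285, GRCm38 chromosome 1, 94038305 to 94052553), which encodes PD-1, was not detectable over background at this depth. It had 10, 14 and 6 counts in Fli1 KO, against 17 and 13 counts in NTC, or 0.425 to 0.767 times background in Fli1 KO and 1.10 and 0.792 times in NTC. The counts were lower in Fli1 KO 3 than elsewhere, but its 95% Wilson interval of 0.554 to 2.64 CPM overlapped that of NTC 1, 1.84 to 4.72 CPM. The log2 fold change was −0.55 (SE 0.41, 95% interval −1.40 to 0.30, edgeR adjusted p = 0.751).

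**Figure D3:**
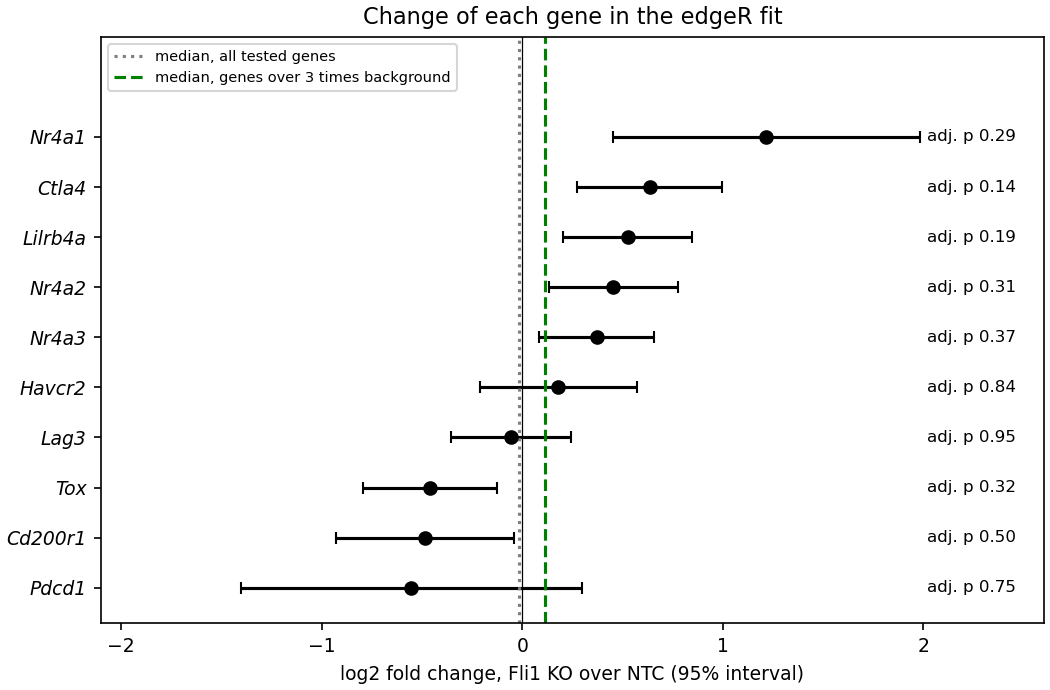
Log2 fold change of each of the 10 genes (points) with its 95% interval (bars) from the edgeR fit and its adjusted p, beside the medians of all tested genes (dotted, −0.02) and of genes over 3 times background (dashed, 0.11). The 7 genes whose interval leaves out 0 had adjusted p from 0.144 to 0.497.

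Ranked by mean level per kb of exon, Lag3 was the highest of the 10 genes in both groups, with 19.4 ± 1.64 CPM per kb in Fli1 KO (SD, n = 3) and 20.2 ± 1.26 CPM per kb in NTC (SD, n = 2). In Fli1 KO it was followed by Havcr2 (15.9), Nr4a1 (15.8), Ctla4 (15.4) and Lilrb4a (13.99). Neighbours in this order overlapped between libraries. In NTC Havcr2 came next (13.9), apart from Lag3 above it and Ctla4 (9.93) below it. Ctla4, Lilrb4a (9.74) and Nr4a3 (9.56) overlapped. Tox (3.83 in Fli1 KO and 5.30 in NTC), Cd200r1 (3.10 and 4.38) and Pdcd1 (0.989 and 1.47) were the lowest in both groups. Nr4a1 held rank 3 in Fli1 KO and rank 7 in NTC.

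**Figure D4:**
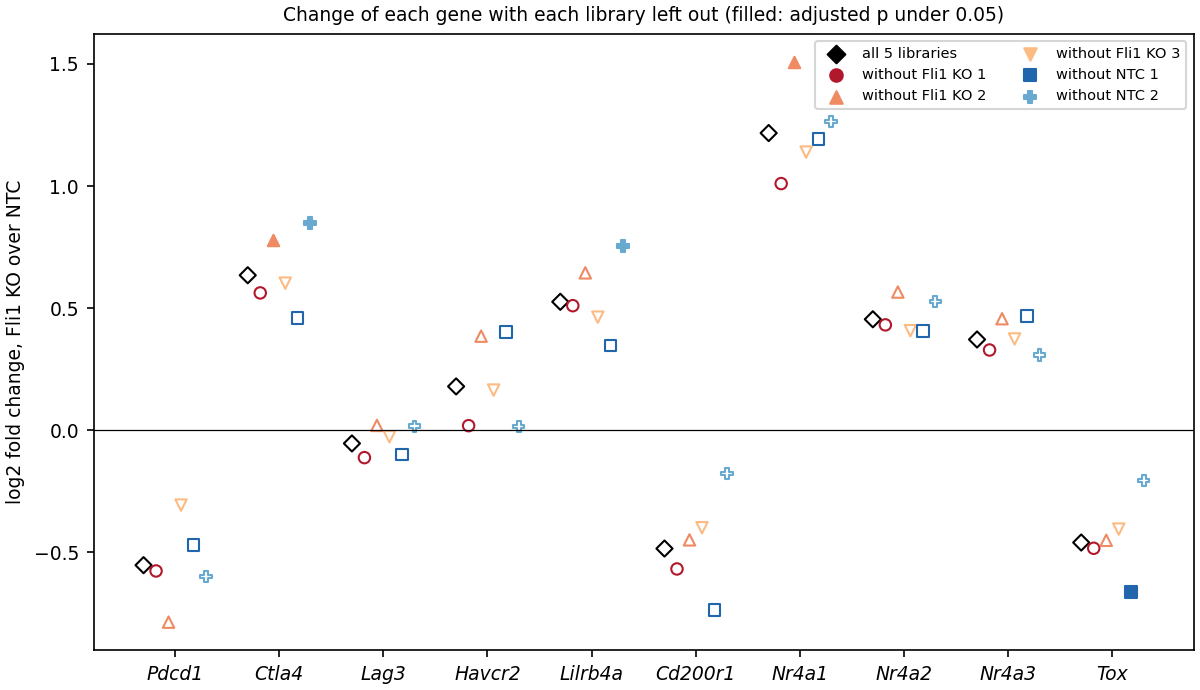
Log2 fold change of each of the 10 genes with all 5 libraries and with each library left out in turn; filled symbols had an edgeR adjusted p under 0.05. Lag3 changed sign and lay at 0.019 without Fli1 KO 2 and at 0.016 without NTC 2, whereas the other 9 genes kept their sign throughout.

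Of 12 paralogues of the 10 genes 1 was called higher, Lilr4b, and 0 lower, with a median log2 fold change of −0.04. Without Fli1 KO 2 there were 2 called, where 0.824% of all tested genes were called. Genes that act with the checkpoint receptors were read from lists of their ligands, other inhibitory receptors and signalling genes. Of 10 ligand genes 0 were called by edgeR, DESeq2 or limma-voom, and 1 had an unadjusted p under 0.05. That was Cd274, the ligand PD-L1, at 52.7, 45.0 and 49.6 CPM in Fli1 KO, against 26.01 and 35.3 CPM in NTC (log2 fold change 0.68, edgeR adjusted p = 0.0534). With all 5 libraries it was called under upper-quartile factors (edgeR adjusted p = 0.0322), no filter on low counts (0.0120) and the filter of 5 CPM (0.0450). It was also called without Fli1 KO 2 (0.76, edgeR adjusted p = 0.0383), but not without Fli1 KO 1 (0.397) or Fli1 KO 3 (0.370). With 1 NTC library left, the log2 fold change was 0.49 without NTC 1 and 0.92 without NTC 2. The list had a median of 0.08, and 5 of its genes lay over 3 times background.

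Of 16 other inhibitory receptors 0 were called higher and 1 lower. Without Fli1 KO 2 there were 2 called, where 0.824% of all tested genes were called. Cd160, which binds HVEM, fell to 20.5 ± 2.74 CPM in Fli1 KO (SD, n = 3), against 47.7 ± 9.35 CPM in NTC (SD, n = 2; log2 fold change −1.22, edgeR adjusted p = 2.5e-04). The median of the list was 0.04, with 10 positive and 6 negative. Whether each listed receptor, Cd160 among them, inhibits or activates these NK cells was not tested. A further list held 22 phosphatases, adaptors, kinases and other genes tied to signalling by such receptors, not all of them inhibitors (Fyn and Lyn are kinases). Of these 22, 0 were called by edgeR, DESeq2 or limma-voom over all 5 libraries and 5 had an unadjusted p under 0.05. The smallest p was that of Ptpn22, a phosphatase that restrains SRC-family kinases, at 359, 313 and 341 CPM in Fli1 KO, against 242 and 259 CPM in NTC (log2 fold change 0.43, edgeR adjusted p = 0.251). The median of these 22 genes, 0.09, was near the 0.11 of all genes over 3 times background.

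Of 21 inputs and partners of NR4A (calcineurin, NFAT, CREB, MEF2 and RXR genes) 1 was called higher and 0 lower. Crem, which encodes activators and repressors that bind the cAMP response element, rose to 54.9, 43.7 and 50.6 CPM in Fli1 KO, against 26.4 and 29.3 CPM in NTC. The groups were well apart, with a log2 fold change of 0.84 (SE 0.15, edgeR adjusted p = 0.00772), but the call ended without Fli1 KO 1 (0.77, 0.125) or Fli1 KO 3 (0.84, 0.125). The median of the list was 0.15.

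Of 15 transcription factors tied to dysfunction of lymphocytes 1 was called higher and 1 lower, with a median of 0.00. Bhlhe40, a basic helix-loop-helix repressor that sustains cytokine production in T cells, rose to 478 ± 67.02 CPM in Fli1 KO (SD, n = 3), against 235 ± 64.2 CPM in NTC (SD, n = 2; log2 fold change 1.02, edgeR adjusted p = 0.00308). Irf4, a factor induced by antigen receptor signals, fell to 21.8 ± 3.50 CPM in Fli1 KO (SD, n = 3), against 40.7 ± 1.36 CPM in NTC (SD, n = 2; log2 fold change −0.90, edgeR adjusted p = 0.00594). Both calls ended without Fli1 KO 1 (edgeR adjusted p = 0.102 and 0.117) or Fli1 KO 3 (0.0760 and 0.0502), and that of Irf4 also with background subtracted (0.0599). At an unadjusted p under 0.05 there were 10 of the 15, against 18.3% of all genes over 3 times background, where 14 of the 15 lay. The list was chosen with earlier results of these data known, so this share is no test. Over all 5 libraries DESeq2 called 5 genes of this list and limma-voom 4, where they called 0.585% and 0.569% of all tested genes. Without Fli1 KO 2 edgeR called 4 of the list and 0.824% of all tested genes. Of 13 further genes found in dysfunctional lymphocytes 0 were called by edgeR, DESeq2 or limma-voom over all 5 libraries, and 3 had an unadjusted p under 0.05, with a median of 0.07. The smallest p was that of Entpd1, the ectonucleotidase CD39, at 81.3, 65.1 and 73.4 CPM in Fli1 KO, against 55.1 and 37.8 CPM in NTC (log2 fold change 0.65, edgeR adjusted p = 0.0771). With all 5 libraries it was called under upper-quartile factors (edgeR adjusted p = 0.0399) and with no filter on low counts (0.0136). It was also called without Fli1 KO 2 (0.75, edgeR adjusted p = 0.0441), but not without Fli1 KO 1 (0.543) or Fli1 KO 3 (0.423). With 1 NTC library left, the log2 fold change was 0.97 without NTC 1 and 0.42 without NTC 2. Without Fli1 KO 2 there were 2 called genes in the list, where 0.824% of all tested genes were called.

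**Figure D5:**
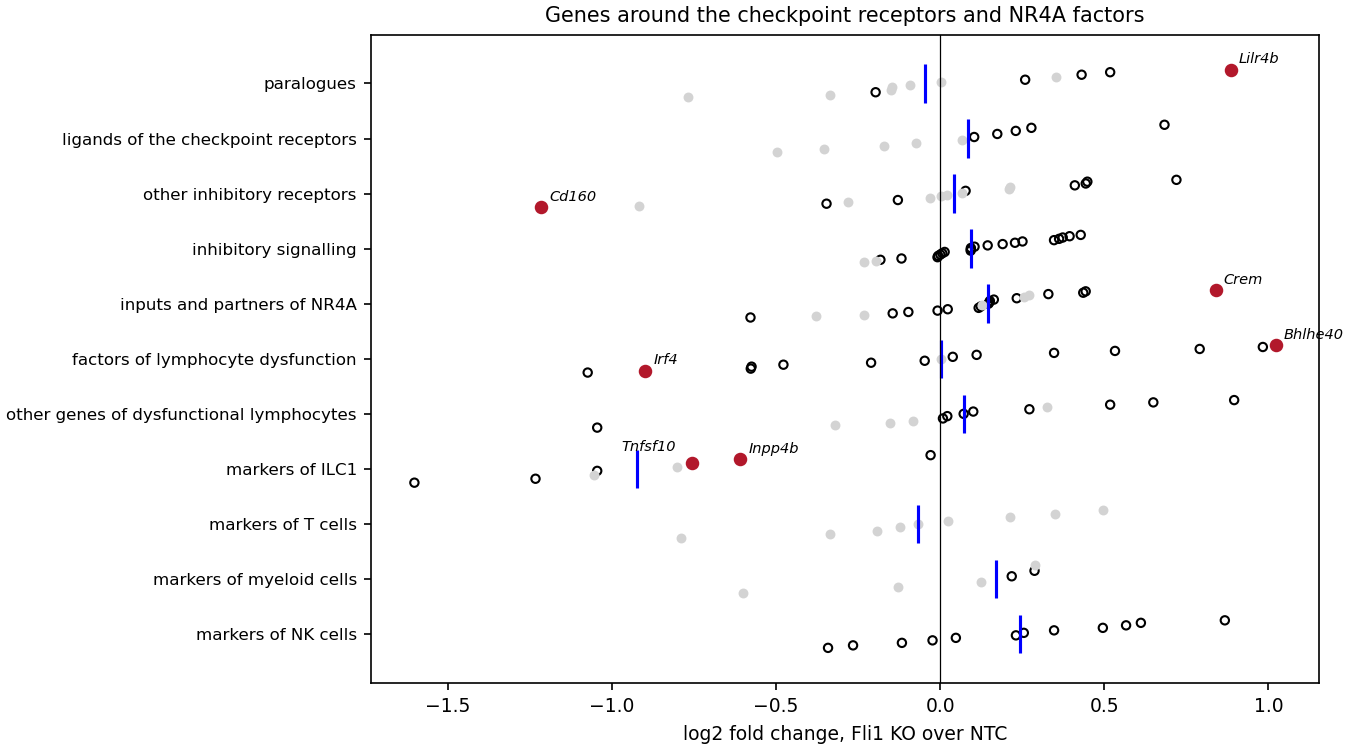
Log2 fold changes of the genes of each list and of cell type markers (red: called; open black: not called and over 3 times background; grey: not called and under it; blue line: median of the list). Called genes were Lilr4b, Crem and Bhlhe40 on the higher side, and Cd160, Irf4, Tnfsf10 and Inpp4b on the lower side; the ILC1 markers had a median of −0.92.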

How the data were processed

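Bulk RNA of splenic mouse NK cells was sequenced (Fli1 KO, 3 libraries; NTC, 2 libraries). Per the labels' protocols, libraries were made from total RNA with an enrichment kit. Per the submitters' processing notes, FastQC 0.12.0, Trimmomatic 0.39, STAR 2.7.11 and mm10 were used. What counted the reads, with which annotation, strand setting and rule for shared reads, is not given. The deposited table holds raw counts per gene ID, whole numbers without normalization, as the authors left them. Symbols (91.9% of IDs matched) came from a gene-name table, and coordinates and exon lengths from GENCODE M21 on GRCm38.

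Counts were filtered with filterByExpr (minimum 10), scaled with TMM and tested with edgeR 4.0.16 (robust quasi-likelihood, R 4.3.3), with Benjamini-Hochberg adjustment over 30580 genes. Intervals of log2 fold changes are 95% t intervals from that fit. Wilson intervals cover counting error only. The 10 genes and all lists were chosen with earlier results of these data known. Beside the 10 genes, the text names up to 4 called genes of each list, or, with none called, its 1 gene of lowest p. Alternatives were other scalings (DESeq2 size factors, upper-quartile, library size alone), other filters (none, or 5 CPM in 2 libraries), each library left out, a replicate block, DESeq2 1.42.0, limma-voom (limma 3.58.1) and genes over 3 times background. Added after seeing the data were subtraction of expected background and the summed Lilrb4a and Lilr4b counts. The fit was tested on simulated data. No columns were left out.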

Additional observations from a re-analysis of the deposited data

How the results depend on the processing

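Over 16 alternative settings the 10 genes gave 155 log2 fold changes: 142 had the direction and the side of the threshold of the fit on all 5 libraries, 11 were newly called and 2 changed sign. The 2 were those of Lag3, 0.019 without Fli1 KO 2 and 0.016 without NTC 2, in a range of −0.11 to 0.019 with 1 library left out. Background subtraction and the filter of 5 CPM left 9 of the 10 genes to test, each without Pdcd1. The fit on genes over 3 times background left 7, without Pdcd1, Cd200r1 and Tox. Of the 10 genes, 1 was called higher with no filter on low counts (Ctla4) and 1 with DESeq2 (Nr4a1), where 0.558% and 0.585% of all tested genes were called. The summed Lilrb4a and Lilr4b counts, entered in place of Lilrb4a and included in the 11, were also called higher. Lilrb4a held only 27.8% to 34.3% of that sum. Without Fli1 KO 2, 2 of the 10 were called higher (Ctla4 and Nr4a1), where 0.824% of all tested genes were called. Without Fli1 KO 1 or Fli1 KO 3, 0 were called, where 0.164% and 0.214% of all tested genes were. The 11 also include calls from the replicate block and from fits with 1 NTC library left. The median log2 fold change of all genes was −0.14 with library size alone, where that of the 10 genes was 0.14. Over all tested genes 140 were called higher and 27 lower, against 92 and 71 with library size alone, 239 and 56 with no filter, 75 and 15 with background subtracted, and 59 lower among genes over 3 times background. Leaving out 1 library gave 46 to 703 higher and 3 to 174 lower. A lone NTC library is taken to vary as much as Fli1 KO, so adjusted p from such fits do not measure the strength of a change. The causes of these shifts were not tested.

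The labels do not say that equal replicate numbers mark shared animals or days. Deviations from the group means correlated at 0.20 for replicate 1 and 0.35 for replicate 2 across genes, with only 2 shared numbers. The deviations of the 2 NTC libraries from their mean mirror each other. The 2 correlations are therefore not separate checks, and they cannot decide whether libraries were paired. With the replicate number as a block, 728 genes were called higher and 193 lower. Replicate 3 is in Fli1 KO only, so Fli1 KO 3 adds nothing to the difference in this fit. The difference rests on the 2 shared numbers, with little left to measure the spread. The calls are therefore not a stronger result of all 5 libraries. Together these were 3.01% of all tested genes, against 0.546% without the block. Of the 10 genes, 3 were called higher (Ctla4, Lilrb4a and Nr4a1). The block also raised the calls in every list of related genes: 3 of 12 paralogues, 1 of 10 ligands (Cd274, edgeR adjusted p = 9.8e-05), 5 of 16 other inhibitory receptors, 4 of 22 signalling genes (Ptpn22 among them, 0.00620), 3 of 21 NR4A inputs and partners, 9 of 15 dysfunction factors and 4 of 13 further dysfunction genes (Entpd1 among them, 1.5e-05). Pdcd1 had 6 to 17 counts a library and lay at 0.425 to 1.10 times background.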
